A study of Homo sapiens with 8 samples.

Results

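RNA of the U3 small nucleolar RNA loci and of 2 microRNA genes that lie in the ribosomal RNA precursor was followed across 8 sequencing libraries of lung cancer spheres. The genes were found by name in the deposited count tables, and 5 of 60106 genes matched. They are SNORD3A, SNORD3C and AC007952.4, which are 3 loci of the U3 family, and MIR3648 and MIR3687. AC007952.4 is the GENCODE 29 symbol of ENSG00000262202, which the files list under a clone name of the RP11 library. These genes were chosen from their own counts in these libraries, so their values are given as a description and without a test.

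The spheres (pneumospheres) were grown from 4 established non-small cell lung cancer lines in flasks to which cells do not attach, in medium without serum. By their labels, EBC1 is a squamous cell carcinoma and the other 3 (H1975, H23 and H820) are adenocarcinomas. From every line, 1 library came from untreated spheres. Another came from spheres exposed for 15 min, without serum, to 25 µg/ml of PD-L1s, which is the checkpoint ligand PD-L1 as a synthetic protein in soluble form. All 8 libraries were made from total RNA with a stranded kit that removes ribosomal RNA, so the comparison of treated with untreated spheres had 4 pairs, 1 per line, and no repeat within a line. Nothing in the labels gives separate cultures, and each line is a single tumour's descendant.

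Ribosomal RNA is made in the nucleolus by RNA polymerase I as 1 long precursor, in which spacers separate the mature RNAs. U3, a box C/D small nucleolar RNA made by RNA polymerase II, pairs with the precursor and is needed for the cuts that free the small subunit RNA, whereas most box C/D RNAs guide methylation. The leading external spacer is cut off and degraded by the exosome, and the MIR3648 and MIR3687 genes lie within that spacer. RNA over these genes can therefore be precursor or spacer RNA. Its level depends both on synthesis and on removal, which cannot be told apart in these libraries.

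The U3 loci are printed first because the results turn on how little they differ. Below are the first 217 bases of each, the stretch of the mature U3 RNA, written as DNA from 5′ to 3′. Capitals mark the 4 positions at which the 5 clustered loci of chromosome 17 vary, counted from 1 at the 5′ end. The letters come from GENCODE 29 transcripts (GRCh38) matched by gene identifier, and SNORD3B-1 is shown for a neighbour that was not among the chosen genes.
SNORD3A: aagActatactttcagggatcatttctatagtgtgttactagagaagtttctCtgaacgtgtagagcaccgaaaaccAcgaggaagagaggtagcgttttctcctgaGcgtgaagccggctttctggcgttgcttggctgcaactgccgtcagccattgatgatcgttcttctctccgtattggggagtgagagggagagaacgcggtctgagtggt
SNORD3C: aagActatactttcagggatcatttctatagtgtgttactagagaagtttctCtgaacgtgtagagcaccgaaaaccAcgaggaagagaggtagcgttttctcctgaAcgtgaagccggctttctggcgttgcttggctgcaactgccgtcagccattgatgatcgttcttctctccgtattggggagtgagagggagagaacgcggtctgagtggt
AC007952.4: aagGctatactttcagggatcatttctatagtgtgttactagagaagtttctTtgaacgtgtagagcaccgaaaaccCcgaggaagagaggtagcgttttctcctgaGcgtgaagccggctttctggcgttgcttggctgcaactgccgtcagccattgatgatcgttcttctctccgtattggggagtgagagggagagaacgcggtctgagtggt
SNORD3B-1: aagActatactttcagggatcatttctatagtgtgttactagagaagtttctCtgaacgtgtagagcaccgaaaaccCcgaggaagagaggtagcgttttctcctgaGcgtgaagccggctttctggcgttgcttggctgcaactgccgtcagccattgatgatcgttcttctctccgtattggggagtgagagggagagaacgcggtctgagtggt
Relative to SNORD3A, SNORD3C carried G108A, AC007952.4 carried A4G, C53T and A78C, and SNORD3B-1 and SNORD3B-2 carried A78C. The longest stretch with no variable position was 109 bases. Past the mature RNA, SNORD3A and SNORD3C had 0 differences over the remaining 364 bases of SNORD3C. The first 217 bases of AC007952.4, which the files class as a long intergenic noncoding RNA, were 100% identical to those of the annotated locus SNORD3D. A read without a variable position fits several loci, so a count on 1 of these loci is uncertain. Alignments under mapping quality 1 were not counted. How much U3 RNA this left out is not known, so the U3 levels and sums below can be too low.

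In the GRCh37 coordinates of the files, SNORD3A (ENSG00000263934.4_2) lies at chr17:19091329-19092027 on the plus strand and SNORD3C (ENSG00000264940.4_2) at chr17:19092978-19093558 on the minus strand. AC007952.4 (ENSG00000262202.4_4) lies at chr17:19015313-19015949, also on the minus strand. SNORD3B-1 and SNORD3B-2 form a like pair, at chr17:18965225-18965982 on the plus strand and chr17:18966659-18967449 on the minus strand. Each chosen gene has a single exon, and 0 other annotated genes overlapped any of them.

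MIR3687 is printed for its base composition, to be read beside the log2 ratios by GC content given below. The whole hairpin gene is written as DNA, in lower case throughout, from the GENCODE 29 transcript with the same gene identifier.
MIR3687: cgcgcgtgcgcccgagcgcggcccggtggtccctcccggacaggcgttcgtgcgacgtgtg
Its G and C content was 78.7%. MIR3648 (ENSG00000264462.1) lies at chr21:9825832-9826011 and MIR3687 (ENSG00000264063.1) at chr21:9826203-9826263, both on the plus strand in GRCh37. The genes are 191 bases apart, so a read pair that reached both was counted for each. In GENCODE 29 the MIR3687 sequence belonged to 2 genes, so the place of a count among ribosomal DNA copies is not known. The count over a hairpin gene does not separate spacer RNA from the microRNA.

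Depth was between 5559870 and 27524854 counts. The untreated libraries of EBC1 and H820 held 5894946 and 5559870 counts, against 27524854 and 23783679 in their treated partners, and the libraries of H23 and H1975 held 15563010 to 23751862. Levels are CPM, counts set against a library total that was scaled by TMM, a factor that aligns the bulk of genes between libraries. The epithelial genes EPCAM, KRT8 and KRT18 were present in each library, and KRT19 was at 1.48 and 0.803 CPM in H23 and at 750 to 1447 CPM in the other lines. The squamous marker TP63 was at 0.192 and 0.314 CPM in EBC1, the line labelled squamous, and at 87.1 and 86.6 CPM in H1975, and KRT5 was at most 0.0471 CPM in any library. In EBC1 the adenocarcinoma marker NKX2-1 was at most 0.224 CPM and NAPSA at most 2.24 CPM, so neither lineage's markers were high there. Of markers of other cells, PTPRC (leukocytes), CD3E (T cells) and DCN (fibroblasts) were at most 0.402, 0.0471 and 0.16 CPM. Others were present, with CD68 (macrophages) at 4.53 to 151 CPM, the collagen gene COL1A1 at 18.2 to 57.2, COL1A2 at up to 4.38 and CDH5 (endothelium) at up to 4.57. Their part in the results was not tested.

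SNORD3A, the plus-strand locus, carried nearly all U3 counts in 5 libraries and few in 3. It had 2391 counts in untreated and 1962 in treated H23, and 1257 and 6424 in H820, and paired values stand in that order, untreated first, throughout. In EBC1 it had 1432 counts untreated and 706 treated, although the treated library was the deeper one. In H1975 it had 67 and 41. As levels these were 95.9 and 98.5 CPM in H23, 213 and 298 in H820, 275 and 31.6 in EBC1, and 2.92 and 1.93 in H1975. The treated EBC1 library and both H1975 libraries were low, and the untreated and treated groups overlapped.

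SNORD3C, the minus-strand locus beside SNORD3A, was high in the 3 libraries where SNORD3A was low. It had 4 and 6 counts in H23, 1 and 43 in H820, 10 and 7400 in EBC1, and 8187 and 5743 in H1975. Its level was 357 and 271 CPM in H1975 and 332 CPM in treated EBC1, and at most 1.995 CPM in each of the other 5 libraries. AC007952.4 had 3 and 2 counts in H23, 3 and 17 in H820, 10 and 7446 in EBC1, and 8189 and 5759 in H1975. Both minus-strand loci were thus high in the same 3 libraries, and the untreated and treated groups overlapped for each.

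The counts of SNORD3C and AC007952.4 were nearly equal where they were high. They differed by 46 counts in treated EBC1 (0.620% of their mean), by 2 in untreated H1975 (0.0244%) and by 16 in treated H1975 (0.278%). The genes are 77028 bases apart on the same strand and differ at 4 of their first 217 bases. Under the counting used by the authors, a pair whose ends overlap different genes is counted for each. Whether the same pairs were counted at both loci was not tested, and the sum is therefore given with and without AC007952.4.

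As a share of the 3 loci, SNORD3A held 99.7% and 99.6% in H23, 99.7% and 99.1% in H820, and 98.6% in untreated EBC1 (95% Clopper-Pearson interval 97.9 to 99.2%). Its share was 4.54% in treated EBC1 (4.22 to 4.88%), 0.407% in untreated H1975 and 0.355% in treated H1975. These intervals cover counting error only. The libraries thus formed 2 states of the U3 counts. The strand of the counted locus went with them, and EBC1 had 1 library in each. Which locus the RNA was made from was not tested, since the loci differ by so few bases and counts alone were used.

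**Figure D1:**
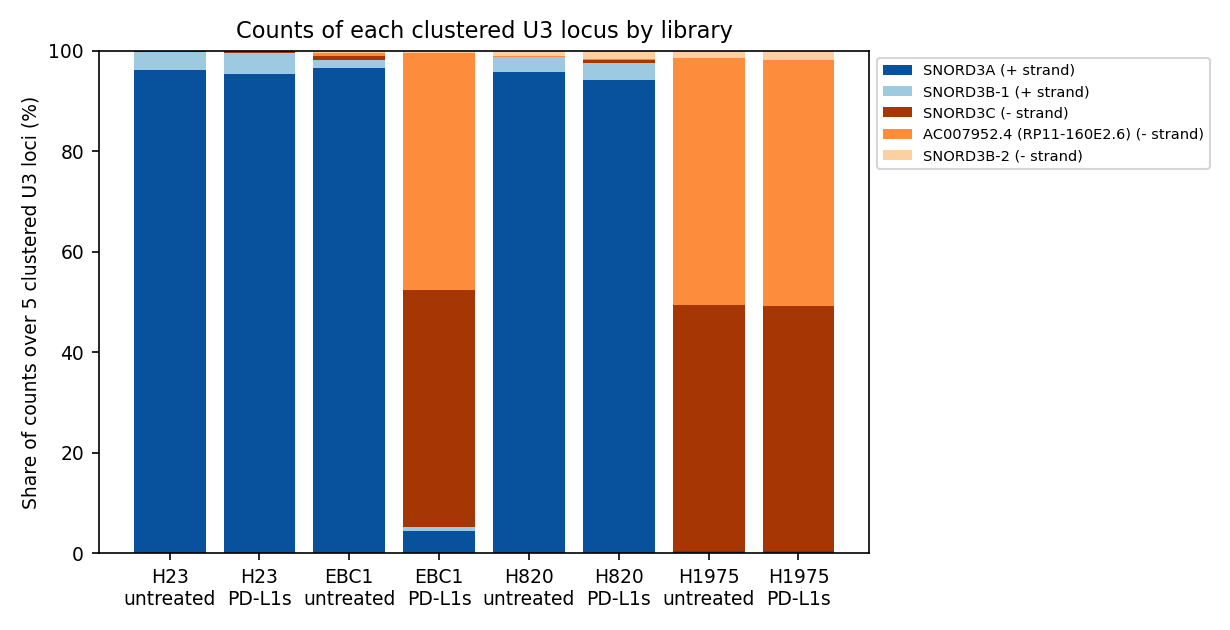
Stacked bars give the share (%) of the counts over the 5 clustered U3 loci of chromosome 17 that fell on each locus, 1 bar per library; blue marks plus-strand and orange minus-strand loci. Plus-strand loci held 97.5% or more of the counts in 5 libraries, 5.22% in treated EBC1, and 0.419% and 0.349% in H1975.

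SNORD3B-1 and SNORD3B-2, identical over their first 217 bases, were looked at for strand beside the chosen genes. Each differs from SNORD3A at 1 of these bases, so pairs that fit several loci can fall on them too. Their counts are therefore not independent of those of the chosen loci. SNORD3B-1, on the plus strand, had 90 and 88 counts in H23, 39 and 225 in H820, 24 and 115 in EBC1, and 3 and 0 in H1975. SNORD3B-2 had 0 and 1 in H23, 13 and 108 in H820, 6 and 55 in EBC1, and 247 and 205 in H1975. SNORD3B-1 held 98.9% or more of the pair's counts in H23 and 67.6% to 75.0% in H820, but 1.20% and 0% in H1975. For the 0 of 205 counts in treated H1975, the 95% Clopper-Pearson interval reached 1.78%. In EBC1 SNORD3B-1 held 80.0% untreated (61.4 to 92.3%) and 67.6% treated (60.1 to 74.6%). These intervals overlap, so a change of strand within EBC1 was not detectable at this pair, which had 30 counts in the untreated library, and most of its counts lay on the plus strand in both libraries.

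Summed over the 3 loci, U3 stood at 96.1 and 98.9 CPM in H23, 213 and 301 in H820, 279 and 697 in EBC1, and 717 and 544 in H1975. The 2 libraries of H23 were lowest, and untreated and treated values overlapped across lines. The log2 ratio of treated to untreated, formed with a prior count of 5, was 0.04 in H23, 0.50 in H820, 1.32 in EBC1 and -0.40 in H1975, with a mean of 0.36 ± 0.73 (SD, n = 4 lines). SNORD3A and SNORD3C alone summed to 96.0 and 98.8 CPM in H23, 213 and 300 in H820, 277 and 363 in EBC1, and 360 and 272 in H1975. On that sum the ratio in EBC1 was 0.39, and the mean over lines was 0.13 ± 0.41 (SD, n = 4). The mean was smaller than the spread between lines on either sum.

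**Figure D2:**
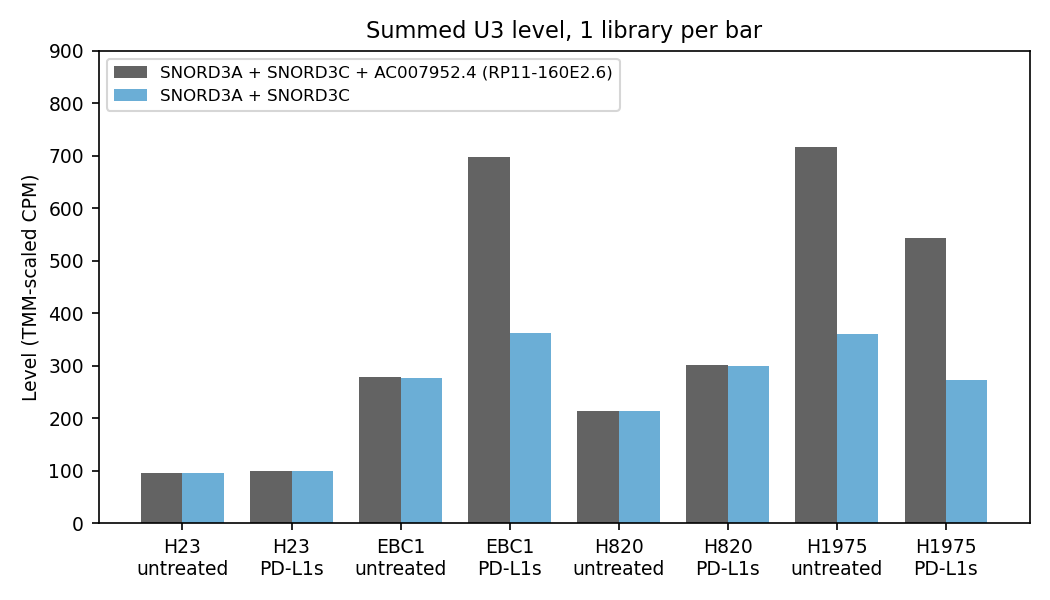
Bars give the summed U3 level in TMM-scaled CPM, 1 library per bar, with AC007952.4 (grey) and without it (blue). The sums differ in treated EBC1 (697 against 363 CPM) and in H1975 (717 against 360 untreated), and are nearly equal elsewhere.

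By line, the shorter sum was lowest in H23, followed by H820 (213 to 300 CPM), H1975 (272 to 360) and EBC1 (277 to 363). The ranges of the last 3 overlapped, so these neighbours did not differ beyond their own spread. With AC007952.4 included, H1975 held 544 to 717 CPM and EBC1 279 to 697. In bulk libraries, fewer cells with a transcript and less of it per cell cannot be told apart.

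The other loci named SNORD3 or U3 numbered 83, of which 12 had at least 10 counts over all libraries and 71 did not. The locus with the most counts outside the cluster was a U3 gene at chr17:56709003-56709197 on the minus strand (ENSG00000212195.1). It had 88 and 106 counts in H23, 42 and 348 in H820, 5 and 49 in EBC1, and 24 and 30 in H1975. Its log2 ratio was 0.56 for H23, 1.15 for H820, 0.998 for EBC1 and 0.35 for H1975, positive in each, and it was singled out after its values were seen. The remaining 9 loci outside the cluster (U3 ENSG00000271817.1, ENSG00000221252.1, ENSG00000238297.1, ENSG00000252189.1, ENSG00000252792.1, ENSG00000207119.1, ENSG00000221044.1, ENSG00000199856.1 and ENSG00000212434.1) had 0 to 22 counts in any library.

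MIR3648 was among the most counted genes. It had 70930 and 60470 counts in H23, 13322 and 57750 in H820, 3605 and 67779 in EBC1, and 51355 and 51703 in H1975. By counts it ranked 9th to 23rd among all genes in 7 libraries and 151st in untreated EBC1. Its level was 2844 and 3036 CPM in H23, 2253 and 2680 in H820, 692 and 3036 in EBC1, and 2240 and 2435 in H1975. Untreated EBC1 was the low library, and the other 7 lay between 2240 and 3036 CPM.

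MIR3687, the shorter gene downstream, was also lowest in untreated EBC1. It had 22312 and 22041 counts in H23, 4028 and 17460 in H820, 1596 and 30770 in EBC1, and 16216 and 12914 in H1975. Its level was 895 and 1107 CPM in H23, 681 and 810 in H820, 306 and 1378 in EBC1, and 707 and 608 in H1975. EBC1 thus held both the lowest and the highest library. MIR3648 had 3.18 and 2.74 counts per count of MIR3687 in H23, 3.31 and 3.31 in H820, 2.26 and 2.20 in EBC1, and 3.17 and 4.004 in H1975. EBC1 had the lowest ratio of the lines, with close values in its untreated and treated libraries although its levels differed over 4-fold.

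Together, the spacer genes stood at 3738 and 4143 CPM in H23, 2934 and 3490 in H820, 999 and 4415 in EBC1, and 2947 and 3044 in H1975. The log2 ratio was 0.15 in H23, 0.25 in H820, 2.14 in EBC1 and 0.05 in H1975. The mean was 0.65 ± 1.001 (SD, n = 4 lines). Each line's ratio was positive, but the mean was smaller than the spread, and without EBC1 it was 0.15. MIR3687 alone was lower in treated H1975, with a log2 ratio of -0.22.

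**Figure D3:**
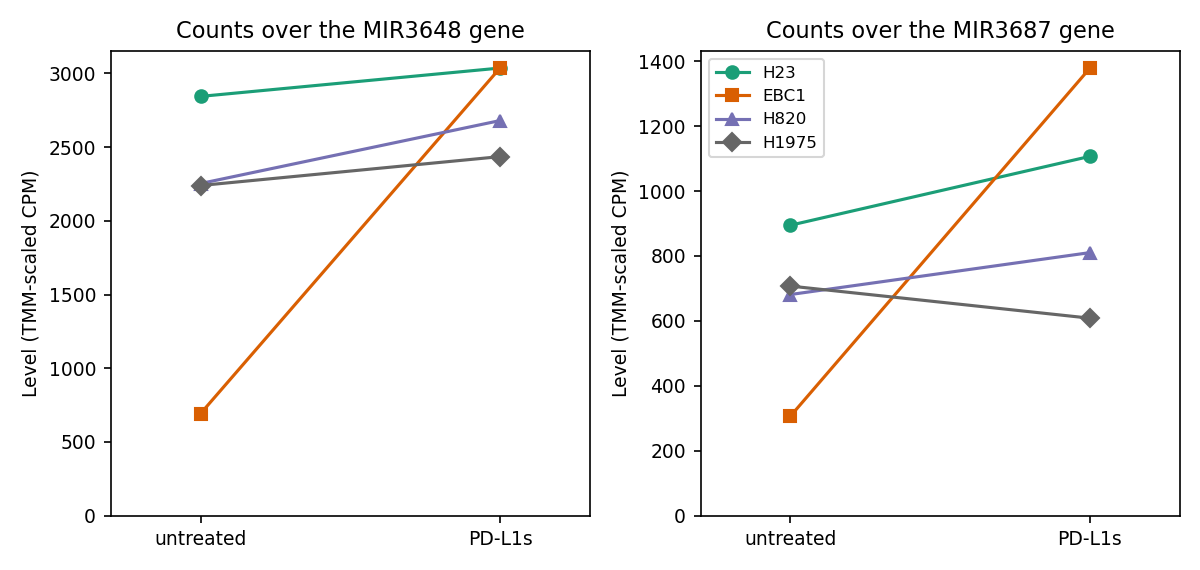
Points give the level of each spacer gene in TMM-scaled CPM, joined by line, with untreated on the left and PD-L1s on the right. EBC1 goes from 692 to 3036 CPM at MIR3648 and from 306 to 1378 at MIR3687, and the log2 ratios of the other lines lie between -0.22 and 0.31.

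Across the genes tested, a log2 ratio above 1 was held by 3.39% of genes in EBC1, 5.26% in H820, 0.492% in H23 and 0.476% in H1975, and one below -1 by 2.34%, 4.14%, 0.459% and 0.38%. In EBC1, SNORD3C (7.24), AC007952.4 (7.25), MIR3648 (2.13) and MIR3687 (2.17) lay above 1 and SNORD3A (-3.11) lay below -1. In H820, SNORD3C lay above 1, from 1 count in the untreated library, and the other 4 genes lay between the limits. None of the 5 genes passed either limit in H23 or H1975. The genes were chosen from these same values, so the counts describe them and nothing more. All 5 genes passed the filter on low counts, SNORD3C and AC007952.4 through the libraries in which they were high.

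Per kilobase of gene, the median level over the libraries was 139 CPM for SNORD3A, 3.37 for SNORD3C, 2.13 for AC007952.4, 14209 for MIR3648 and 12438 for MIR3687. In counted pairs, the spacer genes thus stood far above the U3 loci per length. Any pair that overlaps a gene is counted, so this scale overstates genes shorter than a fragment, MIR3687 (61 bases) most.

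The treated EBC1 library also had more RNA of GC-rich genes. Tested genes of at least 70% G and C (106 genes) had a median log2 ratio of 0.48 in EBC1, against -0.05 in H23, 0.10 in H820 and 0.00 in H1975. Among them 20.8% lay above 1 in EBC1. Genes of 60 to 70% (3044 genes) had a median of 0.39 in EBC1, and those under 40% (3769 genes) a median of 0.00. The part of GC content or of the unequal depth in the spacer result was not tested.

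**Figure D4:**
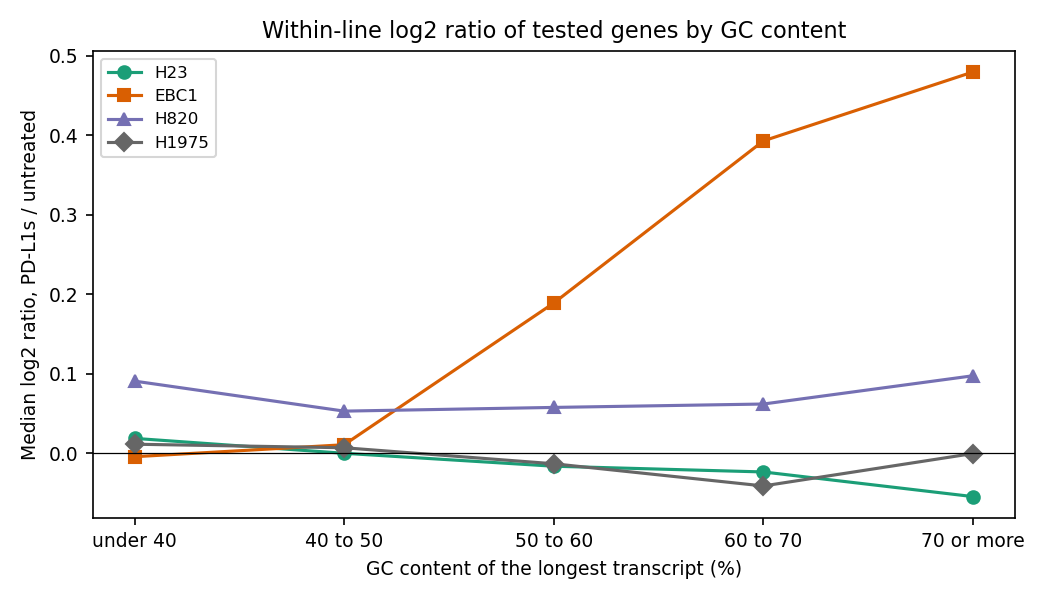
Points give the median within-line log2 ratio of PD-L1s to untreated for tested genes, grouped by the GC content (%) of their longest transcript, with 1 joined series per line. EBC1 climbs from 0.00 under 40% to 0.48 at 70% or more, and the other lines stay between -0.05 and 0.10 at 70% or more.

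The level over genes annotated as nuclear ribosomal RNA was not higher in treated than in untreated EBC1. The 526 genes of nuclear ribosomal RNA type summed to 17.2 and 18.0 CPM in H23, 28.1 and 26.5 in H820, 27.8 and 23.7 in EBC1, and 15.4 and 16.2 in H1975, with a log2 ratio of -0.23 in EBC1. These libraries were depleted of ribosomal RNA, and which ribosomal RNAs these genes hold was not examined. The values therefore do not measure the mature RNAs of the precursor. MT-RNR2, the mitochondrial large ribosomal RNA, which is made apart from the nucleolus, had log2 ratios of -0.82, -0.77, -0.70 and 0.79 in H23, EBC1, H820 and H1975.

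The proteins that make ribosomal RNA and work with U3 were compared on lists written from general knowledge. Of 140 list genes tested, 0 changed with PD-L1s at an adjusted p under 0.05 (edgeR quasi-likelihood F test with line as a term), and DESeq2 called 0. Unadjusted, 3 had a p under 0.05 with edgeR and 0 with DESeq2. Over all genes 9 of 24185 were called, or 0.0372%. The higher ones were 7 (0.0289%) and the lower ones 2 (0.00827%). An unadjusted p under 0.05 was held by 873 genes. Fitted log2 changes of the list genes lay between -0.48 and 0.68, and the smallest adjusted p was 0.9995.

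The core proteins bound to U3 are fibrillarin (FBL, the methyltransferase of box C/D particles), NOP56, NOP58, SNU13 (which binds the kink-turn of the RNA) and RRP9, which is specific to U3. FBL stood at 65.8 and 64.4 CPM in H23, 95.5 and 128 in H820, 120 and 140 in EBC1, and 26.1 and 23.3 in H1975, with a log2 change of 0.11 ± 0.11 (SE). Its level was lowest in H1975 and highest in treated EBC1, and the U3 sum with AC007952.4 was high in both. SNU13 stood at 39.1 and 41.9 CPM in H23, 31.1 and 41.3 in H820, 95.8 and 118 in EBC1, and 63.7 and 59.2 in H1975 (log2 change 0.16). RRP9 stood at 19.7 and 17.5 CPM in H23, 8.29 and 5.89 in H820, 10.6 and 16.2 in EBC1, and 11.5 and 12.2 in H1975 (0.02). NOP56 ranged from 31.9 to 85.3 CPM (-0.05) and NOP58 from 46.2 to 72.4 (-0.04). None of these changes passed the test. Across lines, all 5 core genes differed at an adjusted p under 0.05 (edgeR, FBL 1.77e-09), against 86.3% of all genes tested, and 126 of the 140 list genes did (90.0%). These tests rest on 2 libraries per line, so they measure the spread within lines and not between tumours.

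By group, 3 core proteins had a positive fitted log2 change and 2 a negative one (median 0.02). Assembly factors, which build the particle, had 7 positive and 8 negative (median -0.02), with RUVBL2, an ATPase of the R2TP complex, at 0.20 and TGS1, which trimethylates the cap of U3, at -0.12. RPAP3, another R2TP subunit, was at -0.13 and C12orf45 at -0.17. The small subunit processome, the large complex that U3 helps to form on the precursor, had 12 positive and 25 negative (median -0.02). Its genes with the smallest unadjusted p were UTP15 at -0.19, DIEXF at -0.16, WDR43 at -0.14 and UTP3 at -0.12. Among its positive genes, UTP14A was at 0.12. RNA polymerase I genes had 9 positive and 6 negative (median 0.01), with UBTF, the factor that holds ribosomal DNA open, at -0.05 and the subunits ZNRD1 at 0.31, POLR1C at 0.07 and CD3EAP at 0.05. Over all genes tested, 14496 were positive and 9689 negative. Their median was 0.04, so each of these medians lay within 0.1 of it.

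Genes of precursor decay and cleavage had 11 positive and 8 negative (median 0.03). EXOSC3, a cap subunit of the exosome, was at -0.30 ± 0.14 (SE, unadjusted p = 0.0398, adjusted p = 0.9995 in edgeR), and EXOSC10, a nuclear exonuclease of the exosome, was at 0.14. The exosome cofactors C1D and MPHOSPH6 were at 0.24 and -0.20. Genes of the nucleolus and large subunit assembly had 10 positive and 9 negative (median 0.00), with NOP2, an RNA methyltransferase, at -0.18, BOP1 at -0.18, NOP16 at -0.24 and GLTSCR2 at 0.20. Host genes that carry other small nucleolar RNAs in their introns had 10 positive and 2 negative (median 0.05), with ZFAS1 at 0.16, SNHG7 and SNHG12 at 0.12 and SNHG6 at -0.15. Of all genes tested, 14496 were positive and 9689 negative. No gene of these 3 lists passed the test.

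Small RNAs with genes of their own had 8 positive and 11 negative (median -0.03). SNORD118 (U8, which acts on the large subunit precursor) stood at 1.36 and 1.71 CPM in H23, 1.69 and 4.32 in H820, 0.768 and 1.93 in EBC1, and 1.18 and 1.37 in H1975. It was higher in 4 of 4 treated libraries, with a log2 change of 0.68 ± 0.30 (SE, unadjusted p = 0.0363, adjusted p = 0.9995 in edgeR). Its counts were few, 34 and 34 in H23, 10 and 93 in H820, 4 and 43 in EBC1, and 27 and 29 in H1975. The larger ratios came from H820 and EBC1, whose untreated libraries were the shallow ones. RNU4-1, a spliceosomal RNA, was at -0.48 ± 0.19 (SE, unadjusted p = 0.0206, adjusted p = 0.9995 in edgeR). RNU4-2, of the same kind, was at -0.33 and RNU5B-1 at -0.42. RMRP, the RNA of a ribonuclease that cuts the precursor, was at 0.17, RN7SK, which holds back a transcription elongation factor, at -0.03 and SNORD13 at 0.13. In EBC1, RMRP had 1558 CPM untreated and 2215 treated, and RN7SK had 36987 and 40831.

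**Figure D5:**
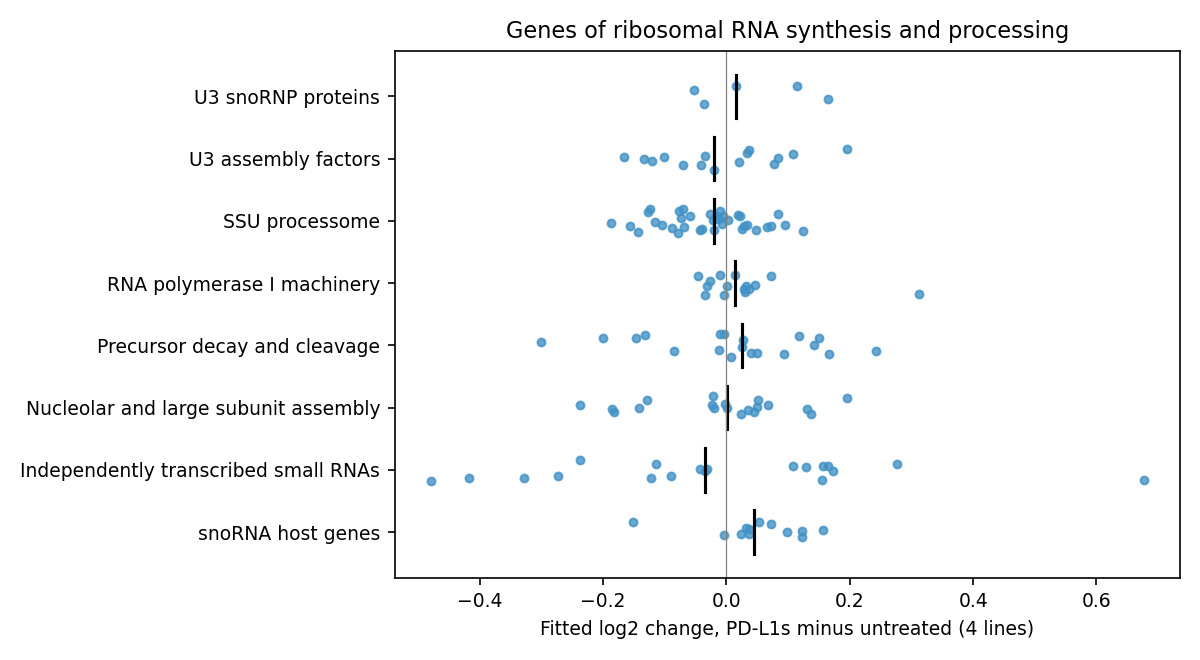
Each point is 1 tested gene of the list on its line, placed by its fitted log2 change of PD-L1s minus untreated over 4 lines; black bars mark list medians, and SSU means small subunit. Medians lie between -0.03 and 0.05, and the outermost points are RNU4-1 at -0.48 and SNORD118 at 0.68.

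The genes most like the U3 sum over the 8 libraries, by Pearson r of log2 CPM among 15818 genes, were WDR24 (0.990), RUSC2 (0.989), RHBDF1 (0.985), PIEZO1 (0.983) and PDLIM7 (0.980). That sum included AC007952.4, so pairs counted at both loci would weigh in it. Likeness to the sum without AC007952.4 was not computed. Those most like the spacer sum were C4orf48 (0.967), VCP (0.943), CH17-340M24.3 (0.935), MIR4523 (0.934) and TEX264 (0.925). The 8 points are 4 pairs of 1 line each, so these values describe these libraries only. The G and C content was 60.5% to 64.3% in the genes most like U3, and in those most like the spacer sum it was 73.2% in C4orf48, 51.9% in VCP, 52.5% in CH17-340M24.3 and 54.7% in TEX264.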

How the data were processed

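RNA was measured by sequencing in 8 libraries, 1 per line and condition. The authors deposited raw counts, in read pairs for each gene. The submitters' processing notes name STAR 2.7.3a, the build GRCh37, featureCounts and Subread 2.0.0. Per the file headers, the annotation was GENCODE 28 lifted to GRCh37, with reverse-stranded counting of primary alignments of mapping quality 1 or more, and a pair overlapping several genes was counted for each. Primary alignments of pairs that fit several U3 copies can fall on any of them, or be left out by the limit on mapping quality.

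Counts were scaled by TMM. The 24185 genes kept by edgeR 4.0.16 (R 4.3.3, minimum count 10, line as group) were fitted with line and treatment as terms, and p-values were adjusted by the Benjamini-Hochberg method over all of them. The lines pair the libraries, per the labels. Within lines, log2 ratios used a prior count of 5. DESeq2 1.42.0 was an alternative. The test was checked on simulated data.

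The genes described and the lists were chosen with earlier results of these data known. Of 142 list symbols 141 were matched, 140 of them tested. The genes named were the chosen genes, other U3 loci with at least 10 counts, the core U3 proteins, up to 4 genes per other list by unadjusted p, SNORD118, SNORD13, RMRP and RN7SK, and 5 genes by likeness (mean log2 CPM of at least 1, pseudocount 0.5 CPM). The marker PECAM1 was not analysed here. The sequence of 1 spacer gene is not reported here. P-values measure the spread between these libraries.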

Additional observations from a re-analysis of the deposited data

Results flagged for a closer look

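Among the 4 untreated libraries, H1975 stood apart from the others at the minus-strand U3 loci. SNORD3C had 357 CPM there against 0.160 to 1.92 in the other untreated libraries, AC007952.4 had 357 against 0.120 to 1.92, and their sum was 714 against 0.281 to 3.84. The gap between H1975 and the nearest library took up nearly the whole range of the group. By chance, about 1 in 20 groups not chosen for their values is picked out in this way. These loci were chosen from these counts, so that rate does not apply to them and the values are a description. The 3 results are not separate, since the counts of both loci were nearly equal. In the treated group H1975 did not stand apart, because treated EBC1 was also high.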

How the results depend on the processing

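Genes called for treatment numbered 9 in all. With library size alone, or with a total without ribosomal, mitochondrial and small RNAs and the chosen genes, the number was 15. It was 98 with no filter on low counts, 3 at a minimum count of 50, 28 in H23 and H1975 alone, 9 with DESeq2 size factors and 6 with DESeq2. Without the pairing by line (no replicate block), edgeR called 0, with 14 at an unadjusted p under 0.05. Leaving out 1 line gave 5 to 20 (20 without H23, 5 without EBC1, 19 without H1975). The cause of these changes was not tested. No list gene was called in any of the 12 alternative fits, and the number of genes called between lines was 16512 to 21746, against 20861, in fits of 17614 to 42160 genes.

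The mean log2 ratio of the U3 sum was 0.0460 without EBC1 and 0.62 without H1975, -0.18 in H23 and H1975 alone, and 0.13 without AC007952.4, an alternative chosen after seeing the data. The spacer sum gave 0.15 without EBC1 to 0.85 without H1975, and 0.0975 in H23 and H1975 alone. Scaling by library size moved log2 ratios by 0.06 in H23, -0.23 in H820, -0.12 in EBC1 and -0.02 in H1975. The depth of untreated EBC1 and H820 (5894946 and 5559870 counts) limits the shares given there.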
